A study of Mus musculus with 6 samples.

Results

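The 10 genes described here restrain JAK-STAT signalling and were followed in 6 RNA-seq libraries of mouse renal tubular epithelial cells. They are the suppressors of cytokine signalling *Socs1*, *Socs2*, *Socs3* and *Cish*, the protein inhibitors of activated STAT *Pias1* and *Pias3*, and the tyrosine phosphatases *Ptpn1*, *Ptpn2*, *Ptpn6* and *Ptpn11*. The members were chosen by name as negative regulators of the pathway, by a rule that uses no measured value though earlier results of these data were known, and their mouse symbols in the GENCODE M21 annotation were matched to the deposited gene identifiers. All 10 were found among the 22442 genes of the table, and all 10 were among the 11723 genes with enough signal to be tested.

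Cytokines such as interferons and interleukin-6 bind receptors that carry Janus kinases, and the kinases phosphorylate STAT proteins, which then enter the nucleus and switch on genes. The pathway is shut off at several steps. SOCS proteins are made in response to the signal itself, bind the kinase or the receptor and bring in a ubiquitin ligase through a motif called the SOCS box. PIAS proteins are SUMO ligases that limit STATs in the nucleus, and the phosphatases remove phosphate from kinases, receptors and STATs. *Socs3* is the classical feedback gene of Stat3, *Cish* of Stat5, and *Socs1* is induced by interferons. The phosphatase products are PTP1B (*Ptpn1*), TC-PTP (*Ptpn2*), SHP-1 (*Ptpn6*) and SHP-2 (*Ptpn11*), of which SHP-2 also carries growth factor signals forward.

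The cells were mTECs, and every culture received lipopolysaccharide (LPS), a bacterial cell wall component, at 20 μg/ml for 24 h. Cells transfected with a negative control gave 3 libraries labelled LPS, and 3 came from cells transfected with an RNA directed against *Stat3* and are labelled LPSKD. No library without LPS was analysed here. By the labels the cells were sorted with magnets and given an siRNA, whereas the methods of the study describe an immortalised line and list an shRNA against mouse *Stat3*. Neither says whether the 3 libraries of a group came from separate cultures, so p-values measure the spread between these libraries, which may be technical. The comparison asks how the brakes differ between LPS-treated cells labelled as silenced for *Stat3* and their controls.

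The libraries held between 24084827 and 25422171 fragments, worked out from the deposited values. *Stat3*, the targeted gene, had an FPKM (fragments scaled to the gene length in kilobases and to the depth of the library) of 34.6, 31.4 and 35.2 in the LPS-labelled libraries and 30.8, 35.2 and 34.3 in the LPSKD-labelled ones, so the groups overlapped (log2 fold change −0.01, standard error 0.07, adjusted p = 0.944 by limma). Its transcript level therefore did not show the silencing, and the groups are named by their labels throughout. Epithelial markers were abundant, with *Krt8* at a mean FPKM of 1205 and *Epcam* at 307 in the LPS-labelled libraries. The segment markers *Slc34a1*, *Umod* and *Aqp2* were listed at 0 in all 6 libraries, and *Lrp2* had 0 to 3 fragments. Of the 12 tubule and epithelial markers tested, 4 were higher in the LPSKD-labelled libraries (*Pax2*, *Pax8*, *Cdh16* and *Aqp1*) and 1 was lower (*Krt18*). Some of these calls were lost when a library was left out, at adjusted p from 0.0567 to 0.159 by limma. *Cdh16* lost its call without replicate 3 of either group, and *Aqp1* without LPS replicate 3 or LPSKD replicate 2 or 3. *Krt18* kept its call when LPS replicate 1 was left out and lost it without any other library. Their log2 fold changes in these smaller fits were 0.24 to 0.30 for *Cdh16*, 0.85 to 1.06 for *Aqp1* and −0.16 to −0.14 for *Krt18*. None of the 6 fibroblast markers and of the 2 endothelial markers tested passed. The fitted log2 fold change was below 0 for all 6 fibroblast markers (median −0.21) and above 0 for the 2 endothelial markers (median 0.38). The median over all genes tested was −0.01. The part of these shifts in the members' values was not tested.

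No difference between the groups was found for any of the 10 genes, and most were measured closely enough to limit its size. None of the 10 passed an adjusted p of 0.05 in limma, where 3.23% of all genes tested passed (379 of 11723, with 184 higher and 195 lower in the LPSKD-labelled libraries). At an unadjusted p under 0.05 the count was 0 of the 10 and 2058 of the 11723, and 0 of the 10 also passed with voom on the recovered fragments. The groups overlapped in all 10, and they did not in 23.8% of all genes tested. The fitted log2 fold change was above 0 for 7 members and below 0 for 3, with a median of 0.04 beside −0.01 over all genes tested. The median absolute log2 fold change was 0.05 for the members and 0.09 for all genes. Whether the members as a set differed less than other genes was not tested.

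A p above the threshold does not show that a level stayed the same, so the 95% confidence intervals of the fold changes were examined. For 7 members the interval lay wholly within a 1.2-fold change in either direction. *Socs3* needed a limit of 1.5-fold, *Cish* one of 2-fold, and the interval of *Socs1* exceeded 2-fold. These fold changes are on the scale of log2(FPKM + 0.1), which understates the change of a gene as low as *Socs1*.

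**Figure D1:**
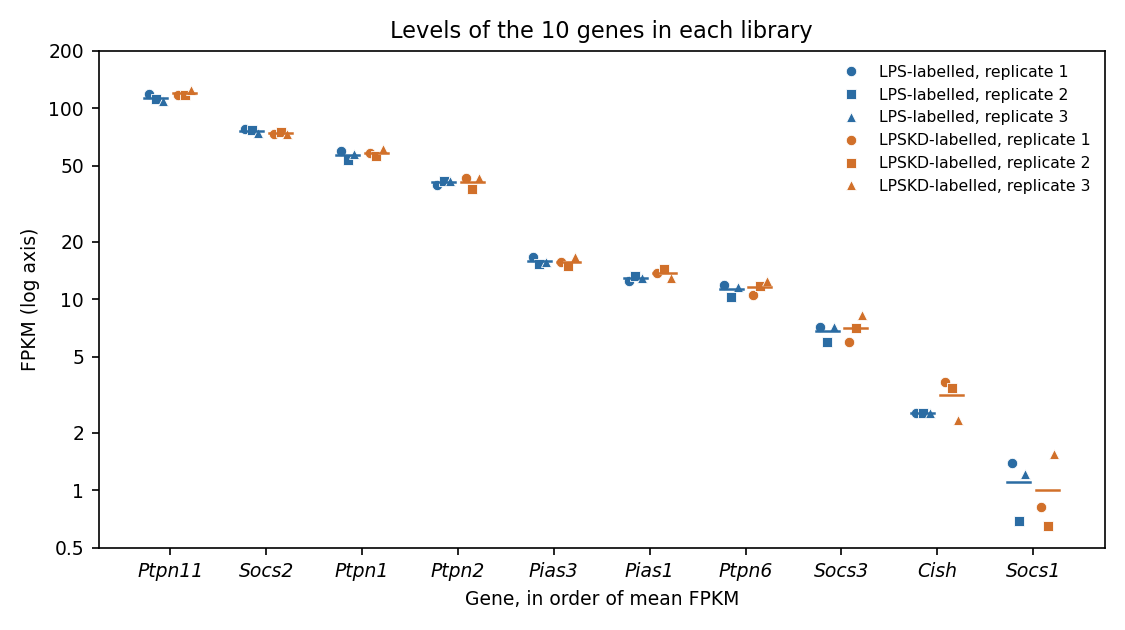
FPKM of each of the 10 genes (log axis) in the 3 LPS-labelled libraries (blue) and the 3 LPSKD-labelled libraries (orange), with marker shapes for replicates 1 to 3 and short lines for the group means. The levels run from 125 for *Ptpn11* down to 0.653 for *Socs1*, and within every gene the 2 colours overlap.

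The members spanned a wide range of levels. By FPKM over all 6 libraries, the order was *Ptpn11* (mean FPKM 117), *Socs2* (75.1), *Ptpn1* (57.6), *Ptpn2* (41.1), *Pias3* (15.8), *Pias1* (13.3), *Ptpn6* (11.4), *Socs3* (6.95), *Cish* (2.85) and *Socs1* (1.05). No gene's range over the 6 libraries overlapped that of its neighbour in this order. The 3 feedback genes best known as targets of STATs, *Socs3*, *Cish* and *Socs1*, were thus the lowest, and the phosphatases other than *Ptpn6* were among the 4 highest.

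This order depends on the gene length used. The deposited values corresponded to whole fragments at the coding length of the genes, and whether fragments on untranslated regions were also counted is not given in the sources used here. *Socs2* has a merged coding length of 744 bases in the values and a merged exon length of 9531 bases in GENCODE M21. When the fragments were divided by the exon length instead, *Socs2* moved from rank 2 to rank 6, *Ptpn2* from 4 to 2, *Ptpn6* from 7 to 4 and *Pias1* from 6 to 7. On that scale *Ptpn6* and *Pias3* overlapped, as did *Cish* and *Socs1*. *Ptpn11* stayed the highest and *Socs1* the lowest under both lengths.

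*Socs3* encodes the inhibitor that binds the interleukin-6 receptor subunit gp130 and its kinases. It lies on chromosome 11 of GRCm38 from 117966079 to 117970047 (minus strand, ENSMUSG00000053113). Its FPKM was 7.20, 6.01 and 7.15 in the LPS-labelled libraries and 5.99, 7.07 and 8.28 in the LPSKD-labelled libraries, from 101 to 142 fragments a library. The lowest and the highest value both fell in the LPSKD group, which enclosed the other. The group means were 6.79 ± 0.674 and 7.11 ± 1.14 (SD, n = 3 each). The log2 fold change was 0.06 (standard error 0.14, 95% confidence interval −0.25 to 0.37, adjusted p = 0.873 by limma), so the interval runs from −16.2% to 29.4% as a percentage change. The log2 estimate ranged from −0.05 to 0.17 as single libraries were left out, and it was below 0 without LPS replicate 2 or LPSKD replicate 3.

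*Cish* encodes the SOCS protein first known for blocking Stat5 docking at receptors. It lies on chromosome 9 from 107296026 to 107302784 (plus strand, ENSMUSG00000032578). Its FPKM was 2.55, 2.55 and 2.54 in the LPS-labelled libraries and 3.68, 3.44 and 2.34 in the LPSKD-labelled ones. LPSKD replicates 1 and 2 were above every LPS library and replicate 3 was below them all. The fragments behind these values were 49, 49 and 48, then 71, 64 and 46. *Cish* had the largest fitted difference of the 10, a log2 fold change of 0.27, but its standard error was 0.19 and its 95% confidence interval ran from −0.16 to 0.71 (adjusted p = 0.509 by limma). The estimate moved between 0.15 without LPSKD replicate 1 and 0.47 without LPSKD replicate 3. Of the 786 stretches of 31 bases in its coding sequence, 292 (37.2%) also occur in *Gm17041*, an antisense gene that overlaps it, and the strand used in counting is not stated.

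*Socs1* encodes the strongest inhibitor of Janus kinases in the interferon pathways. It lies on chromosome 16 from 10782240 to 10785536 (minus strand, ENSMUSG00000038037). Its FPKM was 1.39, 0.695 and 1.22 in the LPS-labelled libraries and 0.818, 0.653 and 1.55 in the LPSKD-labelled ones, from only 10 to 25 fragments a library. Each group held both a low and a high library. The log2 fold change was −0.15 (standard error 0.38, 95% confidence interval −1.03 to 0.72, adjusted p = 0.884 by limma), or from −51.0% to 65.1% as a percentage change. A change within these bounds could not be told from no change in these libraries. With single libraries left out the estimate ran from −0.48 to 0.08, and it was above 0 without LPS replicate 1 or LPSKD replicate 2.

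*Socs2* encodes a regulator of growth hormone receptor signalling. It lies on chromosome 10 from 95385362 to 95417180 (minus strand, ENSMUSG00000020027). *Socs2* was the most abundant SOCS gene per coding length, with an FPKM of 77.9, 77.3 and 74.1 in the LPS-labelled libraries and 73.1, 75.4 and 72.9 in the LPSKD-labelled libraries. The means were 76.4 ± 2.03 and 73.8 ± 1.39 (SD, n = 3 each), and the groups overlapped, since LPSKD replicate 2 was above LPS replicate 3. The log2 fold change of −0.05 had a standard error of 0.04 and a 95% confidence interval from −0.14 to 0.04 (adjusted p = 0.570 by limma), or from −9.27% to 2.83% as a percentage change. Of the 713 stretches of 31 bases in its coding sequence, 472 (66.2%) also occur in the pseudogenes *Gm9847* or *Gm8000*, so fragments could be shared with them.

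Motifs for STAT binding were looked for in the promoters of the members, because feedback SOCS genes are known for such sites. RefSeq promoter windows on GRCm38.p6, from 250 bases before the start to 50 after it, were at hand for 8 of the 10 genes. The letters TTCNNNGAA, the site bound by STAT dimers (GAS, which reads the same on both strands), occurred in the windows of *Socs3* and *Cish*. The letters GAAANNGAAA, the core of the interferon-stimulated response element (ISRE), searched on both strands, occurred in the window of *Socs1*. The windows of *Pias1*, *Pias3*, *Ptpn1*, *Ptpn6* and *Ptpn11* held neither. Over all 32851 promoter windows of this length, 8.3% held a GAS and 3.44% an ISRE core, and 0.457% and 0.225% held at least 2 of them.

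The stretches with the matches are shown because these 3 feedback genes are the members with a match. Each is written 5′ to 3′ on the strand of the gene, with capitals for the matched letters. In *Cish* the 2 GAS matches begin at the start base and 11 bases after it. In *Socs1* the 2 ISRE core matches begin 83 and 77 bases before the start and share 4 letters. In *Socs3* the single GAS begins 154 bases before the start. These starts are those of the RefSeq windows. By the gene spans given above, the *Socs3* and *Cish* stretches lie within the gene, and the *Socs1* stretch lies before it. The *Socs3* stretch is chr11:117969501-117969530, the *Cish* stretch chr9:107296654-107296683 and the *Socs1* stretch chr16:10785597-10785626.
Socs3: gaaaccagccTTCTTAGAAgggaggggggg
Cish: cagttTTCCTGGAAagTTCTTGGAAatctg
Socs1: cttgccgGAAAGAGAAACCGAAAgcggggg

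*Pias1* and *Pias3*, SUMO ligases named for their binding to STATs, were expressed at similar levels. *Pias1* lies on chromosome 9 from 62878368 to 62987924 (minus strand, ENSMUSG00000032405) and *Pias3* on chromosome 3 from 96696384 to 96706070 (plus strand, ENSMUSG00000028101). *Pias1* had an FPKM of 12.5, 13.3 and 12.9 in the LPS-labelled libraries and 13.8, 14.4 and 12.9 in the LPSKD-labelled libraries, from 674 to 746 fragments a library. *Pias3* had 16.6, 15.3 and 15.6, then 15.6, 14.9 and 16.7, from 682 to 807 fragments. For *Pias1* the LPSKD-labelled libraries reached higher but the groups overlapped, and for *Pias3* the LPSKD range enclosed the other. The log2 fold change was 0.08 for *Pias1* (standard error 0.07, 95% confidence interval −0.08 to 0.25, adjusted p = 0.599 by limma). It was −0.01 for *Pias3* (standard error 0.07, 95% confidence interval −0.17 to 0.15, adjusted p = 0.952 by limma). *Pias3* overlaps *Nudt17* on the opposite strand.

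*Ptpn11* was the highest of the phosphatases and of all 10 genes. It lies on chromosome 5 from 121130533 to 121191397 (minus strand, ENSMUSG00000043733), where the unreviewed transcript *Gm42930* overlaps it on the same strand. Its FPKM was 119, 112 and 109 in the LPS-labelled libraries and 118, 118 and 125 in the LPSKD-labelled libraries, from 4778 to 5670 fragments a library. A single LPS library, replicate 1, lay among the LPSKD values. The means were 113 ± 4.90 and 120 ± 3.83 (SD, n = 3 each). With the smallest p of the 10, *Ptpn11* had a log2 fold change of 0.09 (standard error 0.04, 95% confidence interval −0.01 to 0.19), an unadjusted p of 0.0835 and an adjusted p of 0.358 by limma. As a percentage change the interval runs from −0.987% to 13.9%.

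*Ptpn1* and *Ptpn2*, the phosphatases that act on Janus kinases and on STATs, had the smallest fitted differences of the phosphatases together with *Ptpn6*. *Ptpn1* lies on chromosome 2 from 167932057 to 167979385 (plus strand, ENSMUSG00000027540) and *Ptpn2* on chromosome 18 from 67665511 to 67724595 (minus strand, ENSMUSG00000024539). *Ptpn1* had an FPKM of 59.4, 53.3 and 57.8 in the LPS-labelled libraries and 58.2, 56.1 and 61.0 in the LPSKD-labelled ones. *Ptpn2* had 39.8, 41.8 and 41.5, then 42.9, 38.0 and 42.9. In both genes the range within either group exceeded the gap between the means. The log2 fold changes were 0.04 for *Ptpn1* (95% confidence interval −0.08 to 0.17, adjusted p = 0.763 by limma) and 0.01 for *Ptpn2* (95% confidence interval −0.13 to 0.14, adjusted p = 0.971 by limma).

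*Ptpn6* encodes SHP-1, which is best known from blood cells and is also made in epithelia. It lies on chromosome 6 from 124720707 to 124738714 (minus strand, ENSMUSG00000004266). Its FPKM was 11.9, 10.3 and 11.6 in the LPS-labelled libraries and 10.5, 11.8 and 12.4 in the LPSKD-labelled ones, from 489 to 599 fragments a library. Low and high libraries occurred in both groups, and the log2 fold change was 0.04 (standard error 0.09, 95% confidence interval −0.17 to 0.25, adjusted p = 0.889 by limma). Because bulk RNA cannot tell fewer cells of a type from less RNA per cell, leukocyte markers were examined beside it. Of the 12 markers listed, 10 were tested, of which *Csf1r* passed as higher in the LPSKD-labelled libraries (log2 fold change 0.45, adjusted p = 0.0208 by limma) and 0 passed as lower. The fitted log2 fold change was above 0 for 3 of the 10 and below 0 for 7 (median −0.14). Without LPS replicate 3 or without any of the LPSKD replicates the adjusted p of *Csf1r* was 0.0769 to 0.0902. The summed FPKM of the list was 77.2 to 77.4 in the LPS-labelled libraries and 73.9 to 90.7 in the others. The most abundant markers of the list were *Csf1r* at an FPKM of 22.0 to 33.8, *Lyz2* at 17.3 to 27.3, *Cd68* at 9.64 to 15.0 and *Spi1* at 4.40 to 6.63, levels on either side of that of *Ptpn6*. The pan-leukocyte marker *Ptprc* had an FPKM of 0.372 to 1.08, and *Cd3e* and *Itgam* had at most 6 and 4 fragments in any library. The part of such cells in the level of *Ptpn6* was not tested. The antisense gene *Gm20531* shares 8.71% of the 31-base stretches of *Ptpn6*.

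**Figure D2:**
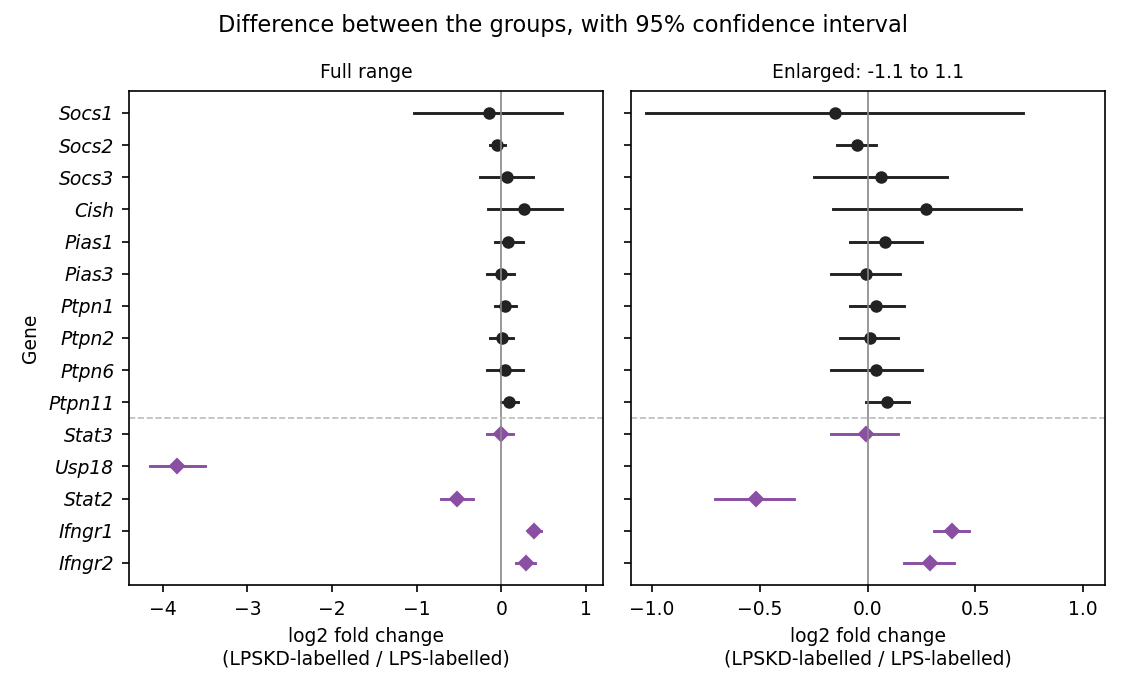
Log2 fold change of the LPSKD-labelled libraries over the LPS-labelled ones (x axis) with its 95% confidence interval from limma, for the 10 genes (black circles) and 5 genes of the pathway (purple diamonds), at full range on the left and enlarged on the right, where *Usp18* falls outside the axis. All 10 black intervals include 0, the widest being *Socs1* from −1.03 to 0.72, while *Usp18* sits at −3.83.

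Levels per kilobase may be added, so the members of each family were also compared as sums, at the coding length. Left out of the sums are *Socs4*, *Socs5*, *Socs6*, *Socs7*, *Pias2* and *Pias4*, which are not among the members. Together those genes had an FPKM of 161 to 170 in the LPS-labelled libraries and 163 to 170 in the LPSKD-labelled ones. Like the order of the levels, these sums and the shares in them depend on the gene length used. The 4 SOCS members together had an FPKM of 89.0, 86.5 and 85.0 in the LPS-labelled libraries and 83.6, 86.6 and 85.0 in the LPSKD-labelled ones (log2 ratio −0.03, exact two-sided permutation test, p = 0.5). *Socs2* made up between 85.7% and 89.3% of this sum in every library, so the sum says little of the other 3. The 4 phosphatases summed to 230, 217 and 220 in the LPS-labelled libraries and to 229, 224 and 241 in the others (log2 ratio 0.06, exact permutation test, p = 0.3). *Ptpn11* gave 49.6% to 52.7% of that sum.

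The sum of *Pias1* and *Pias3* was 29.2, 28.7 and 28.5 in the LPS-labelled libraries and 29.4, 29.2 and 29.6 in the LPSKD-labelled ones. The groups did not overlap, as was so for 23.8% of all single genes tested, and the log2 ratio was 0.03. Their nearest libraries both round to 29.2. This separation is at the coding length, and it was not tested at the exon length. The exact permutation test gave p = 0.1, the smallest that 3 libraries against 3 allow, and 0.650 after Benjamini-Hochberg adjustment over the 13 sums and shares tested. No member's share of its family differed beyond the spread between replicates, with exact permutation p-values from 0.2 to 0.9 over the 10 shares.

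**Figure D3:**
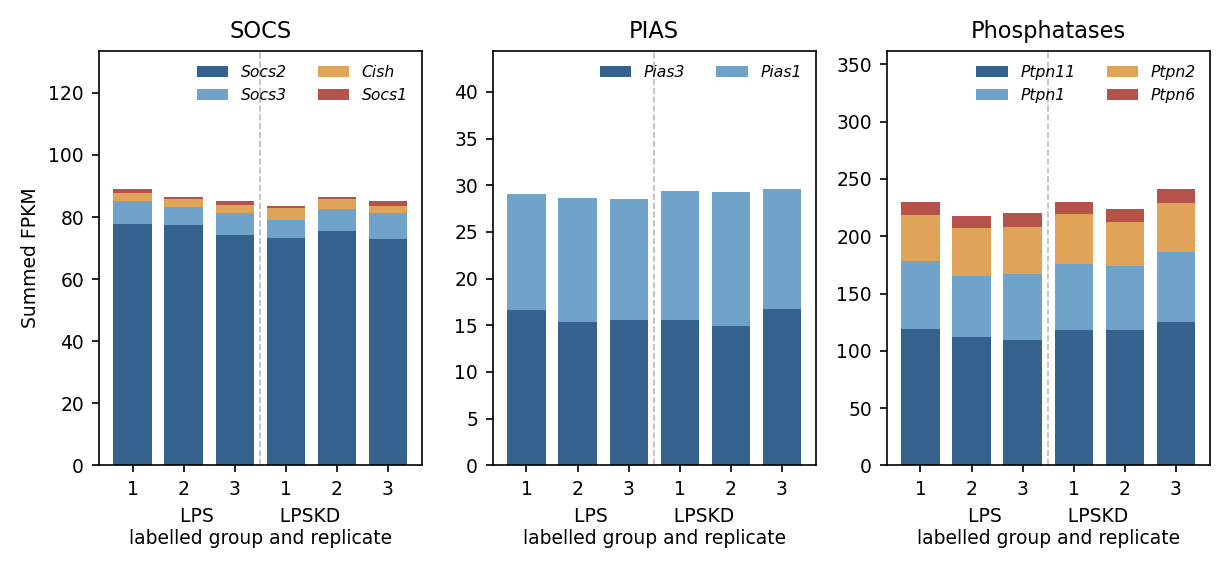
Summed FPKM (y axis, from 0) of the 4 SOCS members, the 2 PIAS members and the 4 phosphatase members in each library (x axis, replicates 1 to 3 of each labelled group), with colours for the genes. The SOCS bars are mostly *Socs2* and lie between 83.6 and 89.0, the PIAS bars between 28.5 and 29.6, and the phosphatase bars between 217 and 241.

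How closely a member could be compared followed from its fragments and from the spread between replicates. In 15 of the 20 pairs of a member and a group, the standard deviation of the replicates exceeded the counting error expected from the mean number of fragments, by up to 3.07 times for *Ptpn11* in the LPS-labelled libraries. For *Socs1* in the LPSKD-labelled libraries the spread was 47.2% of the mean against a counting error of 25.0%. In the LPS-labelled libraries, *Cish* went the other way, with a spread of 0.124% against a counting error of 14.3%. Its 3 values there were closer to each other than counting error alone gives on average.

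**Figure D4:**
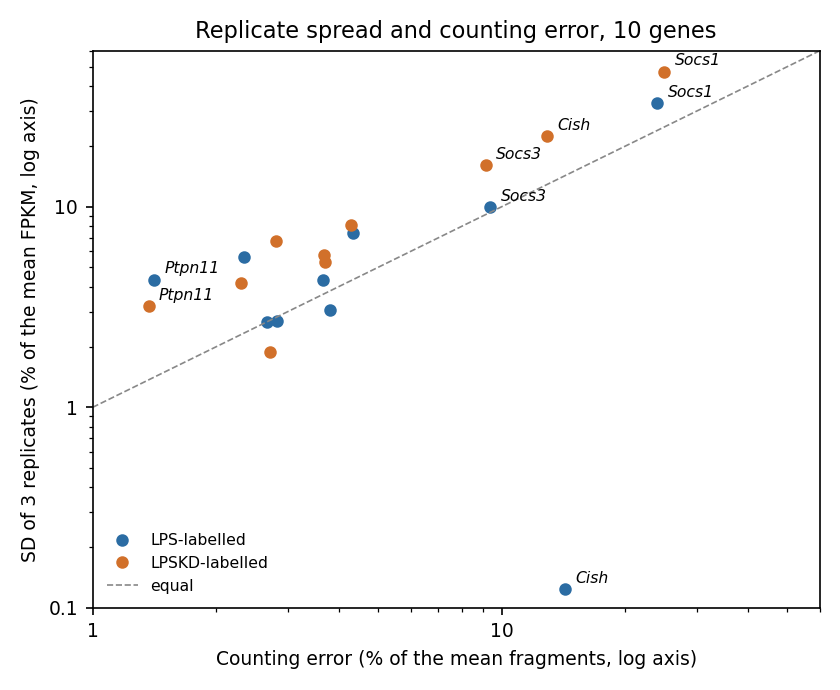
Standard deviation of 3 replicates as a percentage of the mean FPKM (y axis, log) against the counting error as a percentage of the mean fragments (x axis, log), for each of the 10 genes in the LPS-labelled libraries (blue) and the LPSKD-labelled ones (orange), with a dashed line where both are equal. Of the 20 points 15 lie above the line, and *Cish* in the LPS-labelled libraries lies far below it at 0.124% against 14.3%.

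By the profile over the 6 libraries, the tested genes nearest to *Socs3* were *Agk*, *Ivd* and *Bbs2*. Their centred log2(FPKM + 0.1) values differed from those of *Socs3* by a root mean square of 0.050, 0.052 and 0.054, where *Socs3* itself varied by 0.160 about its mean. The replicate spread of *Socs3* was 9.93% in the LPS-labelled libraries and 16.1% in the LPSKD-labelled ones. Its counting errors there were 9.39% and 9.15%. The 3 genes are the closest of all those tested, and whether they vary with *Socs3* was not tested.

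The other genes of these families were examined next. Of the 6 other SOCS and PIAS genes, none passed the test, and the log2 fold changes of *Socs4*, *Socs5*, *Socs6*, *Socs7* and *Pias2* lay between −0.11 and −0.01. *Pias4* came nearest, at an FPKM of 23.9, 21.2 and 22.1 in the LPS-labelled libraries and 29.4, 25.5 and 28.4 in the others. Its groups did not overlap, and its log2 fold change of 0.31 had an adjusted p of 0.0702 by limma, which became 0.0285 with voom on the recovered fragments and ran from there to 0.226 over the alternatives.

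In the same libraries other negative regulators passed the test. Of 13 further inhibitors of JAKs, STATs or their receptors, 11 were tested, of which 1 fell and 1 rose. The one that fell was *Usp18*, an interferon-induced protease that blocks the type I interferon receptor. Its FPKM was 18.3, 21.4 and 19.0 in the LPS-labelled libraries and at most 1.56 in the LPSKD-labelled ones, with means of 19.5 ± 1.66 and 1.29 ± 0.233 (SD, n = 3 each). On the log2 scale its fitted change was −3.83 with a standard error of 0.14 (adjusted p = 1.08e-05 by limma), and the groups lay far apart. The one that rose was *Pdlim2*, a nuclear ubiquitin ligase for STATs, from 3.51 ± 0.317 to 5.53 ± 0.547 (log2 fold change 0.64, adjusted p = 0.0386 by limma). Its call was lost in each of the 6 fits that left out a library, at adjusted p from 0.0546 to 0.156. The leukocyte phosphatase *Ptprc*, *Ptpn9*, *Ptprj*, *Ptprk*, *Dusp3*, *Dusp22*, *Sh2b3*, *Cbl* and *Ndufa13* were tested and did not pass.

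Most of the machinery that the brakes work with did not pass. Of the 6 subunits of SOCS box ligases, *Elob*, part of the elongin complex that SOCS boxes bind, rose from 159 ± 3.38 to 187 ± 6.87 (log2 fold change 0.23, adjusted p = 0.0185 by limma). Without LPS replicate 2 or 3, or without LPSKD replicate 1 or 3, its adjusted p was 0.0506 to 0.0878. The other 5 subunits did not pass, nor did any of the 11 genes of SUMO conjugation and removal examined, whose log2 fold changes lay between −0.08 and 0.14. Of the 8 docking partners of SHP-1 and SHP-2, among them *Gab1* and *Grb2*, 0 passed.

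Among the targets of the brakes, none of the 4 Janus kinases passed. *Jak1* had a log2 fold change of 0.04 (adjusted p = 0.716 by limma) and *Jak2* one of −0.03 (adjusted p = 0.802). Among the STAT genes reported here, *Stat2*, which acts in the type I interferon response, fell from 14.8 ± 0.996 to 10.3 ± 0.651 (SD, n = 3 each, log2 fold change −0.52, adjusted p = 0.0131 by limma). The call of *Stat2* was lost without LPS replicate 3 or without LPSKD replicate 1 or 2, at adjusted p from 0.0557 to 0.0680. *Stat3*, *Stat5a*, *Stat5b* and *Stat6* did not pass.

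Upstream, 15 of 22 listed receptors were tested, of which 2 rose and 0 fell. Both were chains of the interferon gamma receptor. *Ifngr1* went from a mean FPKM of 84.2 to one of 110 (log2 fold change 0.39, adjusted p = 8.92e-04 by limma) and *Ifngr2* from 31.2 ± 1.45 to 38.0 ± 0.225 (log2 fold change 0.29, adjusted p = 0.0218 by limma). The *Ifngr2* call was lost without LPS replicate 2 or without any of the LPSKD replicates, at adjusted p from 0.0520 to 0.0959, and was 0.0570 with the replicate number as a block. Of 16 listed cytokines 7 were tested and none passed. *Il6*, the classical inducer of *Socs3*, had 8 fragments in a single LPS library and 0 in the other 5, whereas *Lif*, which acts through the same receptor subunit, had a mean FPKM of 138 and 132.

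Of 20 textbook Stat3 target genes other than the members, *Lcn2* rose from 719 ± 19.0 to 999 ± 11.7 (log2 fold change 0.47, adjusted p = 1.55e-04 by limma), and *Timp1* fell from 60.1 ± 1.63 to 51.3 ± 1.26 (log2 fold change −0.23, adjusted p = 0.0288). The *Timp1* call was lost in each fit that left out a library except the one without LPS replicate 1, at adjusted p from 0.0703 to 0.127, and was 0.0589 with the replicate number as a block. The other 18 did not pass.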

How the data were processed

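Poly(A) RNA of 6 libraries was sequenced as paired ends, and the authors deposited 1 FPKM value per gene and library for 22442 genes, with no pooling. The submitters' processing notes list HISAT2 2.0, StringTie 1.3.0 and Bowtie 0.12.2 and the builds mm8 and GRCh38.p13 without giving their roles, and the gene models are not given in the sources used here. Gene identifiers were matched to GENCODE M21 (22399 matched).

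Depth was recovered by finding the library totals and gene lengths at which the FPKM values are whole fragments to within 0.01. All 16837 genes above 0 came out whole, 97.8% of them at the merged coding length plus 0 to 10 bases, and 0% of genes with over 100 fragments did with totals raised by 0.1%. Totals were 24084827 to 25422171 fragments, so a member's precision depends on its own fragments. Counting errors assume independent fragments.

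Groups follow the sample labels. Log2(FPKM + 0.1) was fitted for genes whose FPKM averaged at least 0.5, without covariates, in limma 3.58.1 (R 4.3.3, lmFit and eBayes with trend), with Benjamini-Hochberg adjustment at 0.05 over all 11723 genes and confidence intervals from the same fit. The fit was tested on simulated data. Sums and shares were tested by exact two-sided permutation over the 20 assignments of labels. Alternatives were other pseudocounts and filters, quantile normalisation, median centring, no trend in eBayes, a block for the replicate number, voom on the recovered fragments, and the omission of each library. Levels per exon length were added after seeing the data. The replicate numbers were not used to pair libraries, because nothing in the sources used here says that they mark a shared culture or day. Same-numbered replicates did not deviate together (correlations −0.016, −0.004 and −0.043).

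The rule for the members uses their names only, but it, the gene lists and the tests were chosen with earlier results of these data known. The genes named are the members, *Stat3*, *Usp18*, the other SOCS and PIAS genes, every list gene with an adjusted p under 0.05, the 3 nearest in profile to *Socs3*, and markers at 0 or highest in their list. Other list genes were named after their values were seen, and a few genes of the lists are not reported here and are left out of the lists' counts. Promoter windows come from RefSeq on GRCm38.p6. Each stretch of 31 coding bases was looked up in the transcripts of other genes. Figures were drawn with matplotlib 3.10.9.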

Additional observations from a re-analysis of the deposited data

How the results depend on the processing

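Of the 160 fold changes of the 10 members under 16 alternatives, 147 kept their direction, 13 turned and 0 passed the threshold, by the sign before rounding. The lowest adjusted p was 0.173 (*Ptpn11*). With single libraries left out, the log2 fold change lay between −0.48 and 0.08 for *Socs1*, −0.05 and 0.17 for *Socs3*, −0.06 and 0.03 for *Pias3*, −0.02 and 0.06 for *Ptpn2*, −0.00 and 0.07 for *Ptpn1*, −0.03 and 0.10 for *Ptpn6*, −0.17 and 0.02 for *Socs7*, −0.02 and 0.00 for *Socs6* and −0.06 and 0.04 for *Stat3*. *Pias3* was also 0.01 after quantile normalisation, and *Socs6* turned to 0.00 after quantile normalisation or median centring. The count of all genes past the threshold, 379 in the report, was 140 without the trend, 213 with the replicate block, 598 with voom on fragments and 158 to 357 with a library left out, lowest without LPS replicate 3. Of the genes in the pathway lists 8 passed in the report, 4 without the trend, 5 with the replicate block and 3 to 9 with a library left out, lowest without LPSKD replicate 1. Fewer samples enter the fits without a library, and the cause of the other shifts was not tested. Without the trend *Pax8*, *Cdh16*, *Aqp1*, *Csf1r*, *Elob*, *Pdlim2*, *Ifngr2*, *Timp1* and *Krt18* lost their calls, as did *Pdlim2* and *Krt18* with no filter and *Pdlim2* and *Timp1* with voom. The replicate block made no call among the members, with adjusted p of 0.403 for *Ptpn11* and 0.502 for *Cish*, and lost those of *Pdlim2*, *Ifngr2*, *Timp1* and *Krt18*. The 3 sums of members by family kept their direction under every alternative run for them. Fragments were fewest for *Socs1* (10 to 25 a library) and *Cish* (46 to 71), where counting error was largest.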

Other observations

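The members were also compared with *Stat3* itself over the 6 libraries, on log2(FPKM + 0.1), as 10 relations. *Ptpn6* (Pearson r = 0.87, exact permutation p = 0.0653, adjusted 0.375, Spearman rho = 0.43 with exact p = 0.419) and *Socs3* (r = 0.80, exact permutation p = 0.0750, adjusted 0.375, rho = 0.43 with exact p = 0.419) had the highest r. Without the 2 libraries farthest from the median of *Stat3*, LPS replicate 2 and LPSKD replicate 1, r became −0.90 and −0.82. The positive r of both genes thus rests on those libraries. In the remaining libraries the FPKM of *Stat3* was only 34.3 to 35.2, with a counting error of 2.28%, so any r over them carries little weight. For *Ptpn2* the rank correlation was −0.89 (exact permutation p = 0.0333, adjusted 0.333) with r = −0.58 (exact permutation p = 0.174, adjusted 0.580), and r was −0.58 without those libraries too. None of the 10 Pearson and 10 Spearman correlations passed the adjustment.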
